A study of Homo sapiens with 12 samples.

Results

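Chromatin remodellers and bromodomain genes were followed in cisplatin-resistant pancreatic cancer cells. The members are the genes whose symbol starts with SMARC, with ARID, CHD or BRD followed by a digit, or is PBRM1, on probe sets listed with exactly 1 gene symbol. The probe set with the highest mean over the 12 arrays stood for its gene. This gave 41 genes, on 45 such probe sets, of 18417 genes measured. Besides genes of remodelling complexes, ARID factors and bromodomain proteins, the rule took in BRD3OS and the transcribed pseudogene BRD7P3. SMARCD2, whose probe set also carries another gene's symbol, and ARID4A are not analysed here.

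RNA of 4 groups, each with 3 arrays, was compared: AsPC1 and BxPC3, established human cell lines of pancreatic ductal adenocarcinoma, and derivatives AsPC1-R and BxPC3-R selected for resistance to cisplatin, a DNA-crosslinking platinum compound. Maintenance medium held 1.67 µM of the drug for AsPC1-R and 0.60 µM for BxPC3-R, the parental lines are described without drug, and the final passage before harvest was drug-free for both derivatives. Each line has 1 derivative, so resistance and other properties of that derivative cannot be told apart. Whether arrays of a group represent independent cultures is not stated, and if they do not, the p-values cover only array-to-array spread, which may be technical.

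Chromatin remodellers use ATP to slide, evict or exchange nucleosomes and so open or close DNA to transcription and repair. The SWI/SNF family joins an ATPase, SMARCA2 or SMARCA4, to shared subunits and to subunits that define its forms: ARID1A or ARID1B for BAF, ARID2, PBRM1 and BRD7 for PBAF, and BRD9 for the non-canonical form. ISWI enzymes space nucleosomes, CHD enzymes include the NuRD ATPases, and bromodomains bind acetylated histones. Subunits of SWI/SNF are among the genes often mutated in pancreatic ductal adenocarcinoma.

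Levels are log2 values on a common scale for each gene, and each array's median lay between 6.48 and 6.65. SMAD4 and CDKN2A, deleted in BxPC3, read 4.70 and 6.22 in that line, and a level of up to 6.22 can therefore be read without a transcript. Of the 41 genes, 35 had a group mean at or above 6.554, the median of all values; ARID3C, ARID5A, BRD3OS, BRD7P3, CHD5 and SMARCD3 stayed under it in every group. All 6 epithelial markers tested had a group mean above that median, and the leukocyte markers PTPRC, CD3E and CD14 had none. Of the fibroblast markers, DCN was at most 4.10, and COL1A1 read 7.38, 7.29, 7.33 and 7.42 in AsPC1, AsPC1-R, BxPC3 and BxPC3-R. COL1A2 read 6.61, 6.43, 6.39 and 6.42 in the same order. The endothelial marker VWF was at most 5.40. LUM, CDH5 and PECAM1 differed more between the groups. LUM read 11.55 in AsPC1, 10.51 in AsPC1-R, 4.91 in BxPC3 and 6.45 in BxPC3-R. CDH5 read 9.34 in BxPC3 and 6.67 in BxPC3-R, and PECAM1 7.28 and 6.04. CDH5 and PECAM1 thus both fell in BxPC3-R, while VWF stayed low, and LUM moved by more than the other fibroblast markers. Of the acinar and endocrine markers, CELA3A read at most 7.01 and PRSS1 at most 6.86, and CPA1 and GCG stayed under 6.554. A part of other cell types in the changes was not tested. BxPC3 replicate 2 stood apart: the 50 transcripts most in excess in AsPC1 relative to BxPC3-R were all higher on it than on the other BxPC3 arrays, with a median excess of 0.83. Of the 14 members that were higher in AsPC1 than in BxPC3, 6 were highest on that array, with a median excess of -0.01; over all genes higher in AsPC1 the share highest on it was 37.3%.

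The sequences just upstream of 4 members are shown, chosen among members with a RefSeq window for large or opposed changes described below; ARID2, CHD6 and SMARCC2 had no window. They are the 150 bases before an annotated transcription start in RefSeq on GRCh38.p14, written 5′ to 3′ on the gene's strand. Capitals mark CpG dinucleotides, the sites of DNA methylation, which was not measured. SMARCD1 lies at chr12:50085192-50085341 on the plus strand, SMARCA1 at chrX:129523491-129523640 on the minus strand, CHD2 at chr15:92900174-92900323 on the plus strand, and the first of the 2 listed ARID5B starts at chr10:61901549-61901698 on the plus strand.
SMARCD1: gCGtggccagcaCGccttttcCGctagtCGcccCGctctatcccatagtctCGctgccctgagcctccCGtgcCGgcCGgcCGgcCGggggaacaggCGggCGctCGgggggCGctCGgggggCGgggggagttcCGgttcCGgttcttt
SMARCA1: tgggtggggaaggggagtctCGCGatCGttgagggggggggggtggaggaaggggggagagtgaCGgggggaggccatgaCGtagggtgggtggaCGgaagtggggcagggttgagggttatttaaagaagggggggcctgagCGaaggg
CHD2: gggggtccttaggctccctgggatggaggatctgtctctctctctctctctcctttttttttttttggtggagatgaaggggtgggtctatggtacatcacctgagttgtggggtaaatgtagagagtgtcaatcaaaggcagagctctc
ARID5B: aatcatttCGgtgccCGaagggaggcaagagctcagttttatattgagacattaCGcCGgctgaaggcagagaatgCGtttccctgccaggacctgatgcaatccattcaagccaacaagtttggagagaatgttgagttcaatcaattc

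The SMARCD1 window holds 19 CpG, that of SMARCA1 7, that of ARID5B 5 and that of CHD2 0. Over 35114 such windows of annotated starts the median is 7 and the quartiles are 2 and 15. The SMARCD1 window also matches a GC box (GGGCGG, either strand), as do 36.8% of all windows, and none of the other 3 does. The ARID5B window matches TATAAA, read on either strand, as do 6.71% of all windows. CCAAT, in 23.5% of all windows on either strand, matched none of the 4. RefSeq windows were found for 32 of the 41 members, and these matches are letters in a window, not measured binding.

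In AsPC1-R, several SWI/SNF subunits were lower than in AsPC1, while ARID5B and the ISWI ATPase SMARCA1 were higher. ARID3B was higher on the probe set used but not on its other one (-0.22, SE 0.20). The fall was largest for ARID2, 1.85-fold, and falls included subunits shared between forms of the complex. Of the 41 members, 16 changed, 5 up and 11 down, at an adjusted p under 0.05. Over all genes 20.3% were called, 11.6% up and 8.64% down, and among genes above the median level 27.4% were called. The arrays of the groups did not overlap for 24 members and for 33.4% of all genes. The median change was -0.11 over the members and -0.05 over all genes tested. Between these groups LUM went from 11.55 to 10.51 and PECAM1 from 5.69 to 6.35, while COL1A1 went from 7.38 to 7.29 and VWF from 5.40 to 5.33. The part of other cell types in the changes was not tested. When arrays were centred on their medians, 6 members rose and 8 fell. Leaving out AsPC1-R replicate 1 lowered the count to 10, with 4 up and 6 down.

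Among the SWI/SNF genes, ARID2, which targets the PBAF form to chromatin, read 10.61, 10.78 and 10.48 in AsPC1 and 9.80, 9.53 and 9.87 in AsPC1-R. The groups did not overlap, and the log2 change was -0.89 (SE 0.10, adjusted p = 2.18e-05). SMARCD1, a shared subunit that links the complex to transcription factors, read 9.03, 9.05 and 9.10 against 8.51, 8.56 and 8.55. Every resistant array lay under every parental array (-0.52, SE 0.08, adjusted p = 5.15e-04). SMARCC2, a scaffold subunit, read 10.47, 10.36 and 10.36 against 9.96, 9.78 and 9.99, again without overlap (-0.48, SE 0.08, adjusted p = 6.88e-04). ARID1B, the alternative to ARID1A in BAF, fell from 9.15 ± 0.11 to 8.73 ± 0.08 (mean ± SD, n = 3; -0.42, SE 0.09).

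The calls of smaller falls were lost in some fits that left out an array. Over the 12 such fits the change ran from -0.38 to -0.27 for BRD7, -0.26 to -0.23 for SMARCC1 and -0.29 to -0.22 for SMARCA2. BRD7 stood at -0.31 (SE 0.08, adjusted p = 0.0122), but its adjusted p was 0.0583 without AsPC1-R replicate 1 and 0.0557 without AsPC1-R replicate 3. The scaffold gene SMARCC1 changed by -0.25 (0.07, adjusted p = 0.0182), or 0.0519 and 0.0597 without AsPC1-R replicates 1 and 2. The ATPase gene SMARCA2 changed by -0.26 (0.08, adjusted p = 0.0332); that call was lost in 6 of the 12 fits that left out an array, with 0.0899 without AsPC1-R replicate 2 as the weakest. The other ATPase gene, SMARCA4, was not called (-0.09, 95% interval -0.28 to 0.10), nor were ARID1A (-0.24, interval -0.43 to -0.04, adjusted p = 0.0847), PBRM1 (-0.11, interval -0.29 to 0.07) and BRD9 (0.05, interval -0.24 to 0.33). SMARCB1, SMARCE1 and SMARCD3 were not called either, at -0.18, 0.08 and -0.20.

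The ATPases outside SWI/SNF and the CHD enzymes moved in different directions in AsPC1-R. SMARCA1, an ISWI ATPase, read 6.26, 6.11 and 6.11 in AsPC1 and 6.94, 6.65 and 6.63 in AsPC1-R (0.58, SE 0.09, adjusted p = 5.00e-04). All AsPC1-R arrays were higher, yet a level near 6.16, as in AsPC1, can be read without a transcript, so the size is uncertain. Its relative SMARCA5 was not called (-0.04, interval -0.21 to 0.13). CHD2, of the CHD1 subfamily, read 11.51, 11.66 and 11.65 against 12.04, 11.90 and 12.05, and so rose (0.39, SE 0.08, adjusted p = 0.00248). CHD1L, an ATPase that responds to poly(ADP-ribose) at DNA damage, fell from 10.10, 9.95 and 10.35 to 9.64, 9.65 and 9.66 (-0.48, SE 0.10, adjusted p = 0.00344). The AsPC1-R arrays were nearly equal for this gene, and the parental arrays carried the spread. SMARCAL1, which remodels stalled replication forks, read 0.25 higher (interval 0.07 to 0.44, adjusted p = 0.0508) and passed only on leaving out AsPC1 replicate 3 or BxPC3 replicate 2 (0.0480 and 0.0483) among the single-array fits.

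CHD6 at 0.28 (SE 0.08, adjusted p = 0.0242) and CHD9 at -0.27 (0.08, adjusted p = 0.0350) were called, but both calls were lost in some fits that left out an array. The CHD6 call was lost without AsPC1 replicate 1 or 2 (adjusted p = 0.0595 and 0.0869) and without AsPC1-R replicate 1 or 2 (0.0744 and 0.0743). CHD9 was lost in 5 of the 12 fits, among them those without AsPC1 replicate 2 (0.122) and AsPC1-R replicate 2 (0.136). Without AsPC1-R replicate 3, BxPC3 replicate 3 or BxPC3-R replicate 2 it gave 0.0847, 0.0516 and 0.0533. The NuRD ATPase genes CHD3 and CHD4 changed by -0.12 and -0.01 and were not called. CHD1, CHD5, CHD7 and CHD8 were also not called, with changes of -0.11, -0.17, 0.18 and 0.20.

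The ARID factors outside SWI/SNF held the largest rise. ARID5B, a DNA-binding cofactor of a histone demethylase, read 6.50, 6.89 and 6.49 in AsPC1 and 8.03, 7.82 and 7.88 in AsPC1-R. The gap between the groups was far larger than the spread within them, and the change was 1.28 (SE 0.11, 2.43-fold, adjusted p = 1.81e-06). The AsPC1 arrays at 6.50 and 6.49 lay under 6.554, the median of all values, so the size of the rise is uncertain. ARID5B was the only member called at 2-fold or more in either derivative. ARID3B, a DNA-binding factor of the ARID3 group, rose from 7.87 ± 0.18 to 8.62 ± 0.11 (0.75, SE 0.12, adjusted p = 3.87e-04). Its second probe set gave -0.22 (SE 0.20), and with the mean over probe sets the change was 0.26 with an adjusted p of 0.219, so the ARID3B rise is uncertain. ARID4B, part of a histone deacetylase complex, stood at -0.33 (SE 0.09, adjusted p = 0.0201) and lost its call without AsPC1 replicate 2 (0.0562), AsPC1-R replicate 1 (0.0605) or AsPC1-R replicate 3 (0.0753). ARID5A, with every group mean under 6.554, changed by -0.33 on the probe set used and by -0.10 on the other, and lost its call without AsPC1 replicate 2 (0.0550) or AsPC1-R replicate 1 (0.0756). The 7 BRD genes outside SWI/SNF include the BET genes BRD2 and BRD3, but also BRD3OS and the pseudogene BRD7P3, which stayed under 6.554. By limma 0 of the 7 were called in AsPC1-R, where 20.3% of all genes were, so this count says little about them. Of the 7, 2 had an unadjusted p under 0.05, and changes ran from -0.34 for BRD10 to -0.01 for BRD8. By the same limma fit, BRD10 (adjusted p = 0.00189) and BRD3 (0.0403) passed without AsPC1 replicate 3, as did SMARCD3 (0.0339). The BET gene BRD2 read 10.26 and 10.22 on average (interval of the change -0.23 to 0.15).

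**Figure D1:**
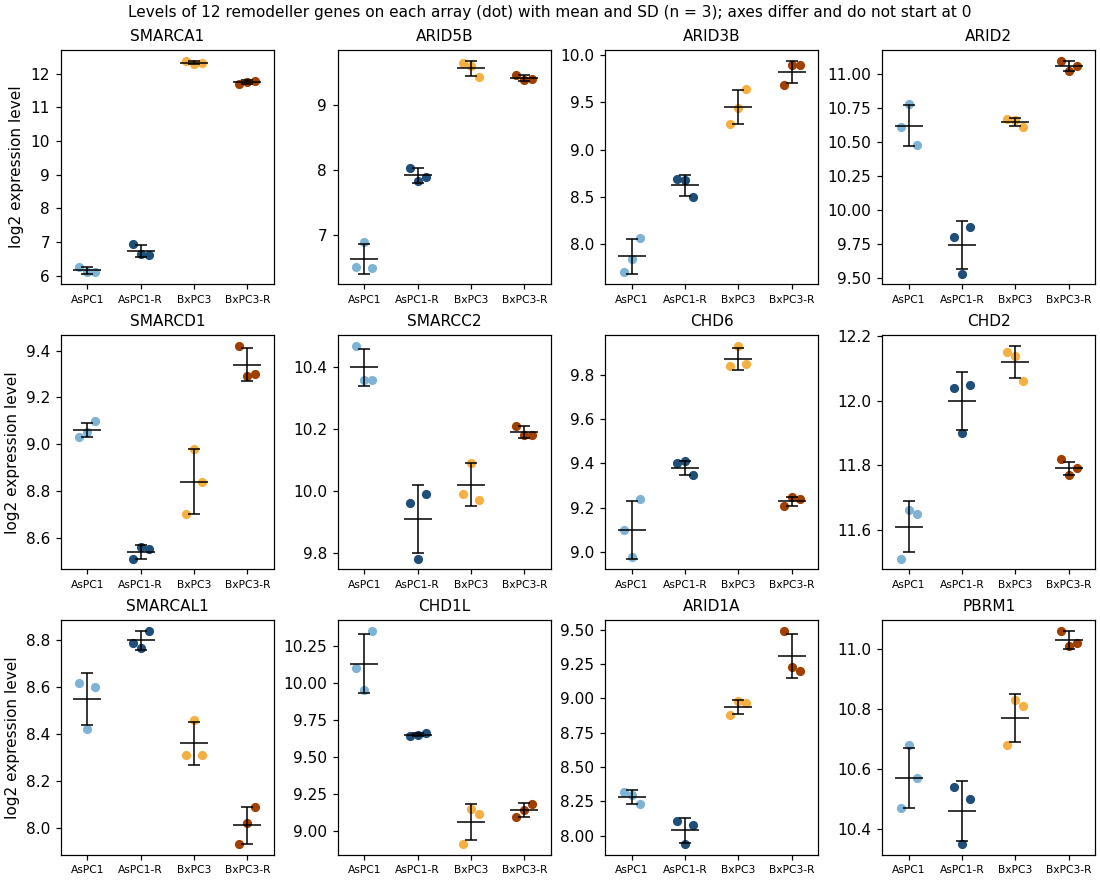
Log2 expression level (y axis, a different range in each panel) of 12 member genes in the 4 groups (x axis). Each dot is 1 array and the bars give the mean and SD of 3 arrays; SMARCA1 sits near 6 in AsPC1 and near 12 in BxPC3, and ARID2 and SMARCD1 are low in AsPC1-R and high in BxPC3-R.

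In BxPC3-R, ARID2, SMARCD1 and ARID1A were higher than in BxPC3, and SMARCA1, CHD6, CHD2 and SMARCAL1 were lower. Of the 41 members, 9 changed, 5 up and 4 down, against 20.8% of all genes (9.75% up and 11.0% down) and 28.0% of those above the median level. The groups did not overlap for 21 members and for 38.2% of all genes. The members' share of 22.0% was near that of all genes. Their median change was 0.08, beside 0.02 over all genes tested. Between the same groups CDH5 went from 9.34 to 6.67, PECAM1 from 7.28 to 6.04 and LUM from 4.91 to 6.45. COL1A1 went from 7.33 to 7.42 and VWF from 5.28 to 5.27. The part of other cell types in the changes was not tested. With array weights 16 members were called, 11 up and 5 down. Without BxPC3 replicate 2, the array that stood apart, 7 were called, 3 up and 4 down, and without BxPC3-R replicate 1 the count was 6.

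ARID2 read 10.67, 10.66 and 10.61 in BxPC3 and 11.10, 11.02 and 11.06 in BxPC3-R, so the groups did not overlap (0.41, SE 0.10, adjusted p = 0.00834). SMARCD1 read 8.70, 8.98 and 8.84 against 9.42, 9.29 and 9.30, with every resistant array above every parental array (0.49, SE 0.08, adjusted p = 6.99e-04). ARID1A, the DNA-binding BAF subunit most often mutated across cancers, read 8.88, 8.98 and 8.97 against 9.49, 9.23 and 9.20 (0.36, SE 0.09, adjusted p = 0.0105). The first BxPC3-R array was the highest, and without it the ARID1A change was 0.27 with an adjusted p of 0.0603. PBRM1, the multi-bromodomain subunit of PBAF, was called at 0.26 (SE 0.08, adjusted p = 0.0437), but in only 4 of the 12 fits that left out an array. The adjusted p was 0.147, 0.0591 and 0.0800 without BxPC3 replicates 1, 2 and 3, and 0.131, 0.0961 and 0.0957 without BxPC3-R replicates 1, 2 and 3. It was also 0.0550 and 0.0559 without AsPC1-R replicates 1 and 3, and 0.0692 with replicate number as a block. SMARCC2 and SMARCA4 read higher by 0.17 and 0.21 and were not called (adjusted p = 0.178 and 0.116), and ARID1B and BRD9 changed by -0.09 and 0.07.

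Among the falls, SMARCA1 went from 12.39, 12.30 and 12.31 to 11.69, 11.75 and 11.79. At these high levels the groups were well apart (-0.59, SE 0.09, adjusted p = 4.06e-04). CHD6, an ATPase of the CHD6 to CHD9 subfamily, read 9.84, 9.93 and 9.85 against 9.21, 9.25 and 9.24. It was the largest fall among the members in BxPC3-R (-0.64, SE 0.08, adjusted p = 5.74e-05). CHD2 fell from 12.12 ± 0.05 to 11.79 ± 0.02 (-0.33, SE 0.08, adjusted p = 0.00733). SMARCAL1 read 8.31, 8.46 and 8.31 in BxPC3 and 7.93, 8.02 and 8.09 in BxPC3-R. The groups did not overlap (-0.34, SE 0.09, adjusted p = 0.00955), but without BxPC3-R replicate 1 the adjusted p was 0.0507. ARID3B was called at 0.37 (SE 0.12, adjusted p = 0.0393), with -0.01 on its other probe set. That call was lost without BxPC3 replicate 1 or 2 (0.155 and 0.0918), BxPC3-R replicate 2 or 3 (0.131 and 0.124) or AsPC1-R replicate 1 or 2 (0.0519 and 0.0503). ARID5B changed by -0.15 (interval -0.39 to 0.09) and was not called. Of the 7 other BRD genes limma called 0, and 0 had an unadjusted p under 0.05, where 20.8% of all genes were called.

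**Figure D2:**
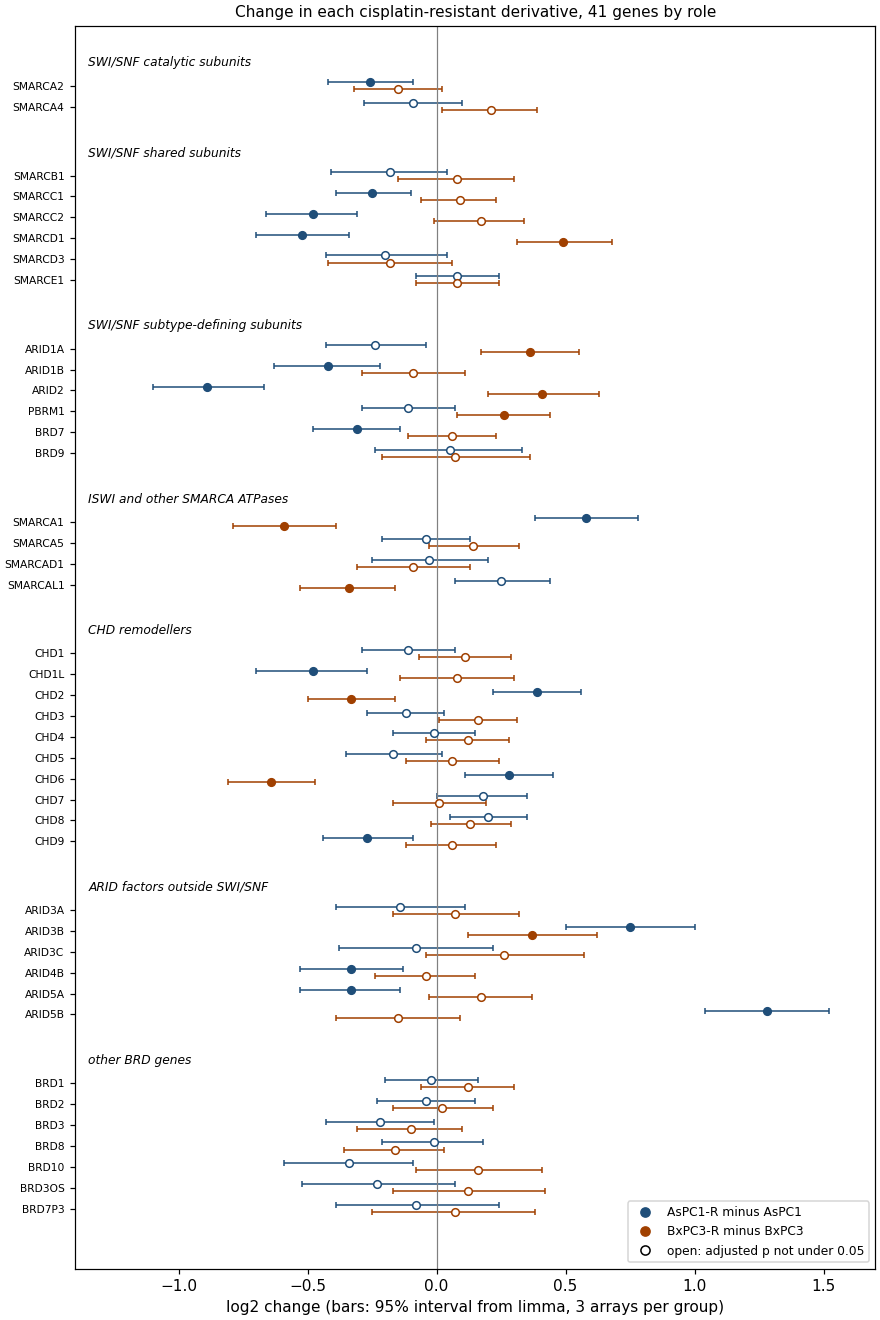
Log2 change of each of the 41 members (rows, grouped by role) in AsPC1-R and in BxPC3-R, with 95% intervals from limma on 3 arrays per group; filled points have an adjusted p under 0.05. ARID2 and SMARCD1 lie below 0 in AsPC1-R and above it in BxPC3-R, and CHD6, CHD2 and SMARCA1 the other way round.

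The derivatives were then set against each other, in comparisons that share no arrays. By the threshold 6 members were called in both derivatives, 5 of them in opposite directions (ARID2, SMARCD1, CHD2, CHD6, SMARCA1) and ARID3B in the same one. With the mean over probe sets, limma called ARID3B in neither derivative (adjusted p = 0.219 and 0.450). The CHD6 call in AsPC1-R held in 8 of the 12 fits that left out an array. SMARCA1 in AsPC1 lay at a level that can be read without a transcript. Over all genes, 7.74% were called in both, 5.38% in opposite directions and 2.36% in the same one. The test of the difference itself, the change in AsPC1-R minus that in BxPC3-R, called 16 members, 5 higher and 11 lower, against 25.4% of all genes (14.1% higher and 11.3% lower) and 33.8% of those above the median level. ARID2 differed by -1.30 (SE 0.14, adjusted p = 1.24e-05), SMARCD1 by -1.02 (0.12), SMARCA1 by 1.17 (0.13), CHD6 by 0.92 (0.11) and CHD2 by 0.72 (0.11). ARID5B, which was not called in BxPC3-R, differed by 1.43 (0.16, adjusted p = 1.48e-05). SMARCC2 differed by -0.65 (0.11), ARID1A by -0.60 (0.13) and SMARCAL1 by 0.60 (0.12). For 12 of the 16 the call held in all 12 fits that left out an array. The exceptions were BRD7, called in 8 of the 12 fits, PBRM1 in 4, BRD10 in 2 and CHD3 in 0. The highest adjusted p was 0.0648 for BRD7 (without AsPC1-R replicate 1) and 0.0902 for PBRM1 (without AsPC1-R replicate 2). It was 0.0879 for BRD10 (without AsPC1-R replicate 2) and 0.104 for CHD3 (without BxPC3-R replicate 3). For SMARCA4 the difference was -0.30 (interval -0.56 to -0.04, adjusted p = 0.0925), and for SMARCA2 it was -0.11 (interval -0.35 to 0.13).

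By role, 4 of the 6 subtype-defining SWI/SNF subunits (ARID1A, ARID2, BRD7, PBRM1) were called lower in the test of the difference, where 11.3% of all genes were. The calls of BRD7 and PBRM1 held in 8 and 4 of the 12 fits that left out an array. ARID1B stood at -0.33 and BRD9 at -0.03, a value whose sign changed with single arrays. The median of the 6 was -0.37, beside -0.07 over all genes. Of the 6 shared subunits, 3 were called lower in this test (SMARCD1, SMARCC2, SMARCC1), with a median of -0.30. The 10 CHD genes split, with CHD6 and CHD2 called higher and CHD1L and CHD3 called lower. The CHD3 call held in 0 of the 12 fits that left out an array. Neither catalytic SWI/SNF subunit was called.

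The parental lines were compared to place these changes beside the baseline. The most unequal member was SMARCA1, which read 6.26, 6.11 and 6.11 in AsPC1 and 12.39, 12.30 and 12.31 in BxPC3. The difference of -6.17 (SE 0.09, 72.2-fold, adjusted p = 6.85e-15) has an uncertain size, because the AsPC1 level may be background. ARID5B followed at -2.93 (0.11, 7.64-fold lower in AsPC1), with 6.63 ± 0.23 in AsPC1 and 9.56 ± 0.12 in BxPC3. Its AsPC1 level was low as well, so this size is also uncertain. ARID3B differed by -1.58 (0.12), and by -0.63 on its other probe set. In the other direction CHD1L was higher in AsPC1 by 1.08 (0.10). In all, 28 of 41 members differed, 14 higher and 14 lower in AsPC1, where 50.6% of all genes (27.7% higher and 22.9% lower) and 60.8% of those above the median level did. The members' share was 68.3%. Arrays of the lines did not overlap for 27 members and for 54.3% of all genes.

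Among the CHD genes 9 of 10 differed between the parental lines, where 50.6% of all genes and 60.8% of those above the median level did. CHD5, among the 9, stayed under 6.554 in every group. CHD1 was higher in AsPC1 by 0.71 (SE 0.08), while CHD6 (-0.77, 0.08), CHD8 (-0.71, 0.07), CHD2 (-0.51, 0.08) and CHD4 (-0.50, 0.07) were lower. CHD8 is a regulator of WNT target genes, and CHD4 is the main ATPase of NuRD. In SWI/SNF, ARID1A was lower in AsPC1 (8.28 ± 0.05 against 8.94 ± 0.05; -0.66, SE 0.09, adjusted p = 2.94e-05) and SMARCC2 higher (0.38, SE 0.08). SMARCA4 (0.08, interval -0.10 to 0.27), ARID2 (-0.02, interval -0.24 to 0.19) and SMARCC1 (0.01, interval -0.13 to 0.16) were not called. BRD8, a bromodomain subunit of the TIP60 acetyltransferase complex, was higher in AsPC1 by 0.52 (SE 0.09), and BRD7 lower by a change of -0.32 (0.08). For 19 of the 28 the call held in all 12 fits without an array. Those that did not were ARID1B, ARID3A, BRD10, BRD2, BRD9, CHD3, SMARCA2, SMARCD1 and SMARCE1, whose highest adjusted p values in the order given were 0.0780, 0.100, 0.104, 0.0675, 0.0905, 0.0654, 0.0660, 0.159 and 0.0625. These came without AsPC1 replicate 1 for ARID1B, AsPC1 replicate 2 for ARID3A and AsPC1 replicate 3 for BRD10, and without BxPC3 replicate 2 for BRD2 and BRD9. They came without BxPC3 replicate 1 for CHD3 and SMARCD1, and without BxPC3 replicate 3 for SMARCA2 and SMARCE1. The SMARCD1 call held in only 2 of the 12 fits. Without BxPC3 replicate 2, 23 members were called, 12 higher and 11 lower, and SMARCA1 lay between -6.22 and -6.14 over all 12 fits.

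**Figure D3:**
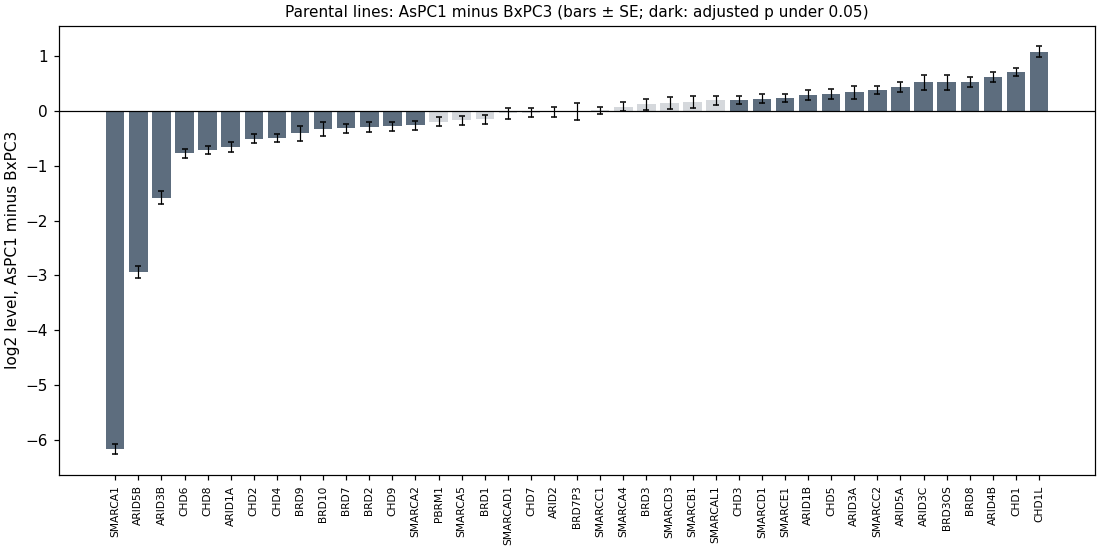
Log2 level in AsPC1 minus that in BxPC3 for the 41 members (x axis, ordered by the difference), as bars from 0 with the SE from limma on 3 arrays per group; dark bars have an adjusted p under 0.05. SMARCA1 at -6.17 and ARID5B at -2.93 stand far from the rest, and CHD1L is highest at 1.08.

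Further remodeller and bromodomain genes and their partners were taken from 7 lists. Together 98 such genes were measured, of which 28 were called in AsPC1-R (12 up, 16 down) and 24 in BxPC3-R (18 up, 6 down). Their shares, 28.6% and 24.5%, were near those of all genes above the median level, 27.4% and 28.0%, and the counts by list below describe the lists only. Of 15 SWI/SNF subunits outside the rule, 2 rose and 4 fell in AsPC1-R, among them DPF2 at 0.50 (SE 0.10), BICRAL of the non-canonical form at -0.62 (0.09) and the PBAF subunit PHF10 at -0.40 (0.08). In BxPC3-R 3 rose and 1 fell, with BCL7A at 0.33 (0.09) and BICRAL at -0.34 (0.09). Of 9 ISWI partners, 2 fell in AsPC1-R, BAZ2B at -0.49 (0.08) and BAZ1A at -0.27 (0.08). By limma 0 ISWI partners were called in BxPC3-R and 1 had an unadjusted p under 0.05, although the arrays of the groups did not overlap for 7 of the 9, as they did not for 38.2% of all genes. Of 12 NuRD partners, 1 rose and 1 fell in AsPC1-R, and 3 rose and 1 fell in BxPC3-R, where MTA3 stood at -0.56 (0.11) and HDAC1 at 0.31 (0.07).

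Of 20 genes of the INO80, SRCAP and TIP60 remodellers, 1 rose and 2 fell in AsPC1-R, with ACTR6 at -0.58 (SE 0.14). In BxPC3-R 3 rose and 1 fell, with the ATPase RUVBL2 at 0.51 (0.11) and INO80C at -0.88 (0.19). TRRAP, a scaffold of acetyltransferase complexes, was 2.39 (0.10) higher in AsPC1 than in BxPC3. Of 8 other SNF2 ATPases, TTF2 fell in AsPC1-R by a change of -0.43 (0.09) and rose in BxPC3-R by 0.31 (0.09), and RAD54B stood at -0.27 (0.08) in AsPC1-R. HLTF and SHPRH, which act at stalled replication forks, were lower in AsPC1 than in BxPC3 by -0.99 (0.09) and -0.97 (0.09).

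Of 25 other bromodomain genes, 6 rose and 5 fell in AsPC1-R, and 7 rose and 1 fell in BxPC3-R. The interferon-inducible nuclear body genes SP110 and SP140L rose in AsPC1-R by 1.33 (SE 0.11) and 0.78 (0.10). BRWD3 fell in AsPC1-R (-0.54, 0.10) and rose in BxPC3-R (0.42, 0.10), while the acetyltransferase gene KAT2B rose in both derivatives, by 0.35 (0.07) and 0.52 (0.07). TRIM28, the corepressor of KRAB zinc finger proteins, rose in BxPC3-R by 0.81 (0.09). Of 9 BET partners and P-TEFb genes, HEXIM1, an inhibitor of P-TEFb, rose in both (0.23, SE 0.08, adjusted p = 0.0498, and 0.39, SE 0.08), JMJD6 rose in AsPC1-R by 0.61 (0.10), and MYC fell in BxPC3-R (-0.58, 0.10).

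The members were also set beside their neighbours, the 10 tested genes on each side in RefSeq order on GRCh38.p14, a measure the choice of members did not use. ARID2, SMARCD1 and SMARCC2 all lie on chromosome 12, with SMARCD1 68 and SMARCC2 206 tested genes from ARID2, so their neighbourhoods do not overlap. Around SMARCC2 the median change was -0.26 in AsPC1-R, with 8 of 20 neighbours called down and 1 up. Around ARID2 it was -0.17, with 7 down and 2 up, and around SMARCD1 -0.12, with 2 down and 0 up. Over all 17908 genes with full neighbourhoods, the central 95% of such medians ran from -0.20 to 0.18. This range by construction leaves 2.5% of genes under it and as many over it. Of the 41 members, only SMARCC2 and BRD2 (0.62) had a neighbours' median outside it, and those of ARID2 and SMARCD1 lay within it. Each of the 3 genes fell by more than its neighbours' median.

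In BxPC3-R the neighbours of ARID2 had a median change of 0.31, with 10 of 20 called up and 0 down. The range over all genes was -0.15 to 0.23, and of the 41 members only ARID2 had a neighbours' median outside it. The neighbours of SMARCC2 stood at 0.15 with 6 up and 1 down, and those of SMARCD1 at 0.05 with 3 up and 2 down. With 20 genes on each side, a setting added after the values were seen, the median around ARID2 was 0.12 in BxPC3-R and that around SMARCC2 was -0.21 in AsPC1-R, while with 5 on each side the SMARCC2 value was -0.13. CHD4, also on chromosome 12, had neighbours at -0.05 and 0.08 in the same order of derivatives. The neighbours of ARID1A stood at 0.20 in BxPC3-R, where 18 of 20 had a change above 0 and 4 were called up. For ARID5B and SMARCA1, whose own changes in AsPC1-R were 1.28 and 0.58, the neighbours' medians were -0.14 and -0.06. CHD6 fell in BxPC3-R while its neighbours stood at 0.05. BRD2, which lies among the MHC genes and was not called, had neighbours at 0.62 in AsPC1-R. DNA copy number was not measured, and its part in these values was not tested.

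**Figure D4:**
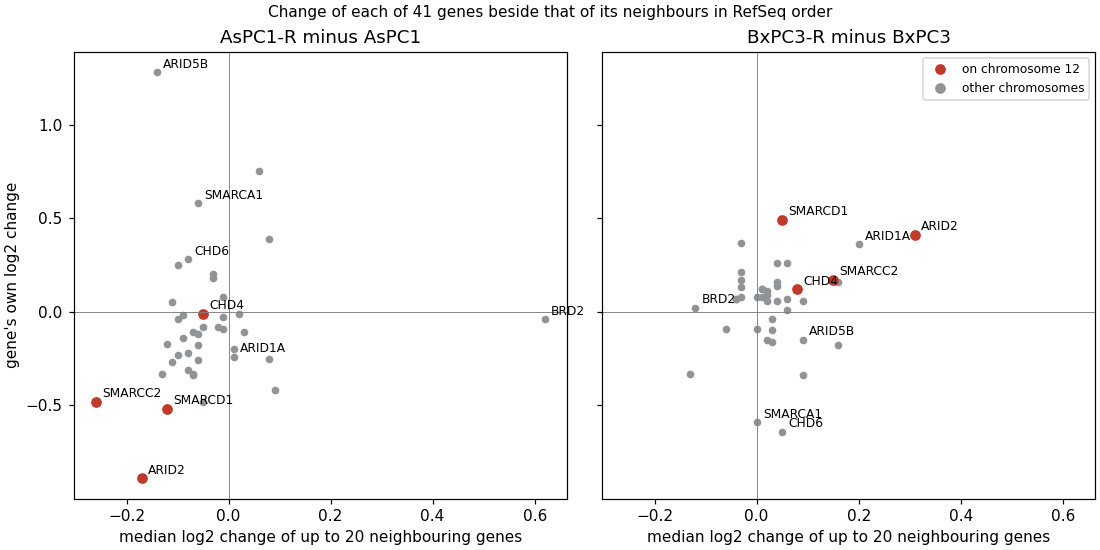
Log2 change of each of the 41 members (y axis) against the median log2 change of up to 20 neighbouring genes (x axis), in AsPC1-R (left) and BxPC3-R (right); each point is 1 member. ARID2, SMARCD1 and SMARCC2 on chromosome 12 (red, with CHD4) lie below 0 on both axes on the left and above 0 on both on the right, and ARID5B lies high on the left with its neighbours at -0.14.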

How the data were processed

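Total RNA was amplified, labelled with biotin and hybridized to Affymetrix arrays, per the labels' protocols. The authors deposited log2 expression levels for 33297 probe sets on 12 arrays. RMA (background correction, quantile normalization and probe summary) in Expression Console made them, per the submitters' processing notes; no version or build is given there, and the range of the values fits a log2 scale. Probe sets with 1 gene symbol (19460) gave 18417 genes, by the highest mean per gene. Tests used limma 3.58.1 in R 4.3.3 on all 12 arrays with a mean per group (8 residual and 5.47 prior degrees of freedom), two-sided, with Benjamini-Hochberg adjustment over all genes and calls at an adjusted p under 0.05. A value in parentheses after a change is its standard error. The fit was tested on simulated data. The number of arrays limits the precision.

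Fully described members were up to 6 called genes per direction and comparison, those called in both derivatives, and a fixed list of core genes; others were named after their values were seen. Members and lists were chosen with earlier results of these data known. Replicate numbers did not pair the samples: the deviations of same-numbered arrays correlated at -0.24 to 0.17.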

Additional observations from a re-analysis of the deposited data

Results flagged for a closer look

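The change in AsPC1-R differed from that in BxPC3-R, by limma's test of the difference at an adjusted p under 0.05, for 16 of the 41 genes. The difference was above 0 for ARID5B (1.43), SMARCA1 (1.17), CHD6 (0.92), CHD2 (0.72) and SMARCAL1 (0.60). It was below 0 for ARID2 (-1.30), SMARCD1 (-1.02), SMARCC2 (-0.65), ARID1A (-0.60), CHD1L (-0.57), ARID5A (-0.50), BRD10 (-0.50), BRD7 (-0.37), PBRM1 (-0.37), SMARCC1 (-0.34) and CHD3 (-0.28). The calls of CHD3, BRD10, PBRM1 and BRD7 held in 0, 2, 4 and 8 of the 12 fits that left out an array. The ARID5A difference was -0.17 (SE 0.14) on its other probe set. With the mean over probe sets it was -0.34 and was not called (limma, adjusted p = 0.0516). The SMARCC1 call was lost with a second quantile normalization.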

How the results depend on the processing

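Of the calls in AsPC1-R, 9 of 16 held without any 1 array, in BxPC3-R 5 of 9. With an array left out, members called ranged from 10 to 19 in AsPC1-R, 6 to 9 in BxPC3-R, 12 to 16 for the difference and 21 to 28 between parental lines. Genes called over the whole table ranged from 2869 to 4246, 2970 to 4181, 3961 to 5296 and 7729 to 9899 in that order. With array weights, 16 members and 6356 genes were called in BxPC3-R, against 9 and 3826. With replicate number as a block, 15, 8, 14 and 27 members were called in the same order, and the calls lost were CHD9 in AsPC1-R, PBRM1 in BxPC3-R, CHD3 and PBRM1 for the difference and SMARCD1 between the parental lines. No called change of a named member reversed its direction among the alternatives run: a fit without dim genes, a second quantile normalization, median centring, a trended robust eBayes, fits on the compared groups alone, averaged probe sets, array weights, the block and each array left out. Of the named members' values, 1827 kept direction and side of the threshold, 82 lost and 31 gained a call, and 23 changed sign, all of them not called. With an array left out, the change in AsPC1-R ranged from -0.23 to 0.09 for ARID3C, -0.07 to 0.05 for BRD8, -0.05 to 0.18 for BRD9 and -0.04 to 0.01 for CHD4. In BxPC3-R it ranged from -0.11 to 0.06 for ARID4B, -0.05 to 0.24 for BRD3OS and -0.04 to 0.17 for BRD9. The difference for BRD9 ranged from -0.12 to 0.1, and AsPC1 minus BxPC3 for ARID2 from -0.1 to 0.05. With array weights, ARID3C in AsPC1-R read 0.11, ARID4B and BRD3OS in BxPC3-R 0.03 and -0.04, and the BRD9 difference 0.06. With arrays centred on their medians, BRD8 and CHD4 in AsPC1-R both read 0.03, and with a second quantile normalization CHD4 read 0. The cause was not tested. Levels near 6.22 or lower limit the sizes for SMARCA1 in AsPC1, ARID3C, ARID5A, BRD3OS, BRD7P3, CHD5 and SMARCD3. The low AsPC1 level of ARID5B, 6.63, makes its sizes uncertain too.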
